A study of Homo sapiens with 7 samples.

Results

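The genes described are 10 genes of chromosome band 11q13 around CCND1: TPCN2, MYEOV, CCND1, FGF19, FGF3, ANO1, FADD, PPFIA1, CTTN and SHANK2. They were taken by name from 56236 genes, and the transcripts of each gene were summed. RNA-seq was performed on KYSE140 and TE5 cells, which are established lines of esophageal squamous cell carcinoma (ESCC). The groups were KYSE140 cells with a non-targeting scramble shRNA, with an shRNA against TP63 (shTP63) and with an shRNA against SOX2 (shSOX2), and TE5 cells with the same 3 kinds of shRNA or with an shRNA against CCAT1 (shCCAT1). Each group was 1 library, so a difference between 2 libraries has no replicate check, and the intervals given for single libraries and pairs cover counting error only. No sample treated without any shRNA vector was analysed here, so all 7 groups share the lentiviral vector.

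The band 11q13 is gained or amplified in many squamous carcinomas, and the amplified segment carries several genes at once. CCND1 encodes cyclin D1, which binds CDK4 and CDK6 and drives cells from G1 into S phase through phosphorylation of the retinoblastoma protein. Its neighbours act in other processes: FADD relays death receptor signals to caspases, CTTN (cortactin) stabilizes branched actin, PPFIA1 (liprin-alpha-1) organizes focal adhesions, ANO1 is a calcium-activated chloride channel, FGF19 and FGF3 are fibroblast growth factors, SHANK2 is a scaffold protein, and TPCN2 is an ion channel of lysosomes. MYEOV is named for its overexpression in myeloma, and its product is poorly characterized.

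The 7 libraries held between 68532611 and 98036494 estimated counts. TP63 was at 25.4% of scramble in TE5 shTP63 and at 26.1% in KYSE140 shTP63, as TMM-normalized counts (counts divided by edgeR's scaling factor for each library). SOX2 was at 39.6% of scramble in TE5 shSOX2 and at 77.4% in KYSE140 shSOX2, so the KYSE140 shSOX2 library kept most of its SOX2 RNA. The CCAT1 transcript was not analysed here, so the shCCAT1 library has no check of its target. All 9 squamous markers reached 1 TPM in some library, and their summed level was 1148 to 30563 TPM. The fibroblast list summed to 13.7 to 45.2 TPM, with 5 of 7 genes under 1 TPM throughout, the immune list to 0.522 to 1.86 TPM and the endothelial list to 0.698 to 9.31 TPM. KRT14 was near 0 in TE5 cells, at 0.202 to 0.546 TPM, against 304 to 1689 TPM in KYSE140 cells. The labels place the TE5 scramble library on another flow cell than the other 6 libraries, and the KYSE140 scramble library on another lane than the KYSE140 knockdown libraries. Line and lane, and scramble and lane, therefore cannot be told apart. In bulk RNA, fewer cells with a transcript and less of it per cell cannot be told apart.

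Levels by line were examined first, on the TPM scale, which is per length and so allows genes to be compared. The TPM of a gene was summed over all its listed transcripts, coding or not, and short ones count for more per length. CTTN was the most abundant of the 10 genes in every library, and FGF3 was at or near 0 in all of them. CTTN measured 993 TPM in the scramble library of KYSE140, 1131 in its shTP63 library and 1034 in its shSOX2 library. In TE5 cells it measured 249 TPM in scramble, 280.1 in shTP63, 279.9 in shSOX2 and 258 in shCCAT1. All KYSE140 libraries thus stood above all TE5 libraries, and CTTN ranked 121 to 139 by TPM among all genes in KYSE140 against 432 to 522 in TE5.

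PPFIA1 measured 273, 256.5 and 227 TPM in KYSE140 scramble, shTP63 and shSOX2. Its TE5 levels were 46.4 TPM in scramble, 50.5 in shTP63, 40.9 in shSOX2 and 48.8 in shCCAT1. The lines did not overlap, and PPFIA1 stood second in KYSE140 scramble but behind CTTN, CCND1 and FADD in TE5 scramble. PPFIA1 and FADD in TE5 scramble, at 46.4 and 48.7 TPM, were close neighbours in that order, and the order of this pair was reversed in TE5 shTP63, where FADD was at 32.7 TPM.

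CCND1 measured 179.8 TPM in KYSE140 cells with scramble, 140.5 with shTP63 and 224.5 with shSOX2. In TE5 cells it was at 92.5 TPM in scramble, 133.0 in shTP63, 170.4 in shSOX2 and 71.2 in shCCAT1. Its lines overlapped: TE5 shSOX2 cells held more CCND1 per length than KYSE140 shTP63 cells. FADD measured 115.5, 88.9 and 116 TPM in KYSE140 scramble, shTP63 and shSOX2, and 48.7, 32.7, 40.4 and 50.9 TPM in TE5 scramble, shTP63, shSOX2 and shCCAT1, again without overlap of the lines.

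Within each library the remaining members were lower than these genes, except MYEOV in TE5 shTP63, which stood level with FADD (32.95 and 32.7 TPM). TPCN2 measured 33.7 to 40.8 TPM in KYSE140 and 7.02 to 8.67 TPM in TE5 libraries, and SHANK2 measured 10.8 to 15.2 against 2.96 to 5.47 TPM. ANO1 measured 8.26 to 20.7 TPM in KYSE140 and 5.32 to 7.34 TPM in TE5. MYEOV showed the opposite order of the lines, with 0.335 to 1.32 TPM in KYSE140 and 8.31 to 32.95 TPM in TE5.

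FGF19 was measured in KYSE140 cells and was barely detectable in TE5 cells. Its estimated counts were 556, 322 and 322 in KYSE140 scramble, shTP63 and shSOX2, which gave 5.16, 2.05 and 2.37 TPM. In TE5 cells FGF19 had 5, 7, 6 and 7 counts in scramble, shTP63, shSOX2 and shCCAT1. The 5 counts of TE5 scramble have an exact 95% Poisson interval of 1.62 to 11.7. FGF3 had 0 counts in 6 libraries and 1 count in TE5 shSOX2, and 3 counts, taken as a rounded one-sided bound for a count of 0, would have been 0.0604 to 0.0880 TPM.

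**Figure D1:**
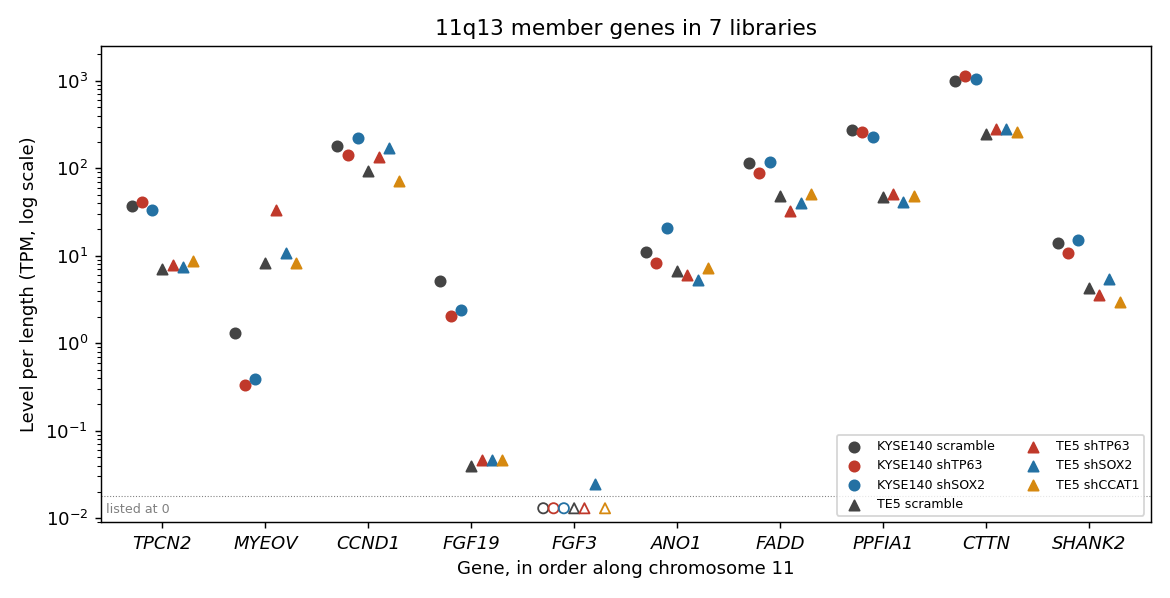
TPM (log scale) of the 10 genes in order along the chromosome, with circles for the 3 KYSE140 and triangles for the 4 TE5 libraries. Open symbols under the dotted line are values listed at 0. CTTN is highest throughout (249 to 1131 TPM), MYEOV alone is higher in every TE5 library, and FGF19 has 7 or fewer counts in each TE5 library.

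The promoter sequences in RefSeq's table (GRCh38.p14, from 250 bases before to 50 after the start) cover 5 of the 10 genes: FADD, PPFIA1, ANO1, FGF3 and TPCN2. That of FGF3 is shown because it was the member without RNA here. It lies at chr11:69819367-69819666 on the minus strand, and capitals mark a match to the words searched.
FGF3: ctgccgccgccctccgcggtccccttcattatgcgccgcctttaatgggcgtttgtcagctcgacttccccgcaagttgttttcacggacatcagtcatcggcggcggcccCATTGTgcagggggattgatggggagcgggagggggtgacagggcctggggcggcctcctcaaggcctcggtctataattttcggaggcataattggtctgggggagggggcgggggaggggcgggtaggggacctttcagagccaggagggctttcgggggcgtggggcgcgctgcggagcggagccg
The words searched on both strands were CATTGT and CTTTGT (core words of SOX factors), the paired core of p53 family sites (that family includes TP63) and TGACTCA (AP-1). Of the 5 promoters, only that of FGF3 held a match, CATTGT from position 112 of the printed sequence. CATTGT occurs in 10.8% of the 35116 promoters, CTTTGT in 16.1%, the paired p53 family core in 0.373% and TGACTCA in 4.95%, the single match overlaps no other, and a match is not a measured site. The GC share of the 5 promoters was 66.0% to 77.7%, against a median of 58.7% over all promoters.

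The lines were then compared with each other at the same shRNA. Between the scramble libraries, 6 of the 9 members with at least 10 counts were past a log2 difference of 1 in KYSE140 (FADD, PPFIA1, CTTN, FGF19, SHANK2 and TPCN2), and 22.2% of all tested genes were. MYEOV was past -1, as were 27.2% of all tested genes. At all 3 shared shRNAs (scramble, shTP63 and shSOX2), the same 6 members were past 1, against 15.2% of all genes, and MYEOV was past -1, against 18.3%.

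TMM-normalized counts of PPFIA1 were 63586 in KYSE140 scramble and 9269 in TE5 scramble, a log2 difference of 2.78 (95% counting interval 2.75 to 2.81). The difference was 2.78 between the shTP63 libraries and 2.88 between the shSOX2 libraries. CTTN was at 121919 normalized counts in KYSE140 scramble and 33903 in TE5 scramble, and its log2 differences of 1.85, 1.99 and 1.91 at scramble, shTP63 and shSOX2 spanned a similarly narrow range. TPCN2 (6026 against 1156 normalized counts in scramble) behaved likewise, with 2.38, 2.44 and 2.27. FADD (12425 against 4646) had log2 differences of 1.42, 1.74 and 1.86, and SHANK2 (1323 against 400) of 1.72, 2.37 and 1.57.

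CCND1 differed less between the lines than these neighbours. It was at 31187 normalized counts in KYSE140 scramble and 15615 in TE5 scramble, a log2 difference of 1.00 (0.97 to 1.03). Between the shTP63 libraries the difference was only 0.12 (0.10 to 0.14) and between the shSOX2 libraries 0.65 (0.63 to 0.67). FGF19 showed the widest gap, with 756 against 5 normalized counts in scramble and a log2 difference of 6.93 (5.95 to 8.81). MYEOV was at 34 against 250 normalized counts, a log2 difference of -2.84 (-3.54 to -2.28), and its gap was wider in shTP63, at -4.78.

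These differences were tested with edgeR's quasi-likelihood fit over scramble, shTP63 and shSOX2 of both lines (6 libraries), with the shRNA as a block and Benjamini-Hochberg adjustment over 23438 genes. The p-values measure the spread between these libraries, each line being 1 line. At an adjusted p under 0.1, 7 of 9 members fitted were higher in KYSE140, as were 31.8% of all genes, and 1 was lower, as were 34.3%. By edgeR with Benjamini-Hochberg adjustment, PPFIA1 had a log2 fold change of 2.81 (SE 0.12, adjusted p = 3.79e-06), TPCN2 of 2.36 (SE 0.12, adjusted p = 8.19e-06) and CTTN of 1.92 (SE 0.11, adjusted p = 1.31e-05). FADD was higher by 1.67 (SE 0.13, adjusted p = 3.83e-05 by edgeR), SHANK2 by 1.89 (SE 0.21, adjusted p = 0.00022 by edgeR) and FGF19 by 6.28 (SE 0.38, adjusted p = 1.56e-05 by edgeR). MYEOV was lower, at -3.84 (SE 0.42, adjusted p = 0.000211 by edgeR). CCND1 was higher by 0.59 (SE 0.18, adjusted p = 0.0256 by edgeR), but this call was lost without KYSE140 scramble (0.37, adjusted p = 0.167 by edgeR), without TE5 scramble (0.37, adjusted p = 0.169 by edgeR) and in the edgeR fit without the shRNA block (0.58, adjusted p = 0.11).

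ANO1 was not called between the lines (log2 0.07, SE 0.30, adjusted p = 0.866 by edgeR), and its direction depended on the measure. Its normalized counts were 924 in KYSE140 scramble and 1258 in TE5 scramble, a log2 difference of -0.44, whereas on summed TPM, with a pseudocount of 0.1, the difference was 0.70. In KYSE140 a larger share of its counts fell on short transcripts, which count for more per length. A further 3 transcripts without a gene in the annotation are listed between those of ANO1, and they held 651 counts in KYSE140 scramble and 1478 in TE5 scramble. With them the normalized counts were 1811 and 2793 and the log2 difference -0.63. For SHANK2, 9 such transcripts held 2124 counts in KYSE140 scramble and 330 in TE5 scramble, and with them its log2 difference was 2.5 instead of 1.72.

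Reads of some members may belong to an overlapping gene. Of the 31-base words of FADD, 56.8% also occur in the overlapping gene ENSG00000254721, so the values of FADD are uncertain to that extent. ENSG00000254721 itself was past a log2 difference of 1 at all 3 shRNAs (1.99, 2.38 and 1.30). CCND1 shares 9.36% of its words, nearly all with LTO1, and ANO1 shares 13.2%, mostly with its antisense gene ANO1-AS1. PPFIA1 shares 5.19% with 2268 other genes, the largest part with CTTN-DT (2.75%). TPCN2, FGF19 and FGF3 share none.

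To place the members among their neighbours, all genes with a start within 2.5 Mb (megabases) of the CCND1 start were placed by position (GRCh37). From the TPCN2 start (-0.64 Mb) to the SHANK2 start (1.51 Mb), 10 protein-coding genes had at least 10 counts: 9 members and LTO1, a ribosome maturation factor gene beside CCND1. LTO1 was past 1 at all 3 shRNAs, with log2 differences of 1.07, 1.39 and 1.37. On the side before TPCN2, the 5 nearest protein-coding genes with at least 100 counts were also past 1 at all 3 shRNAs. In scramble they were higher in KYSE140 by a log2 of 1.46 for MRPL21, 1.41 for IGHMBP2, 1.36 for CPT1A, the carnitine palmitoyltransferase of fatty acid oxidation, 2.43 for TESMIN and 2.29 for GAL, the galanin precursor.

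Beyond SHANK2 the next genes, DHCR7 and NADSYN1, were past 1 too. DHCR7, which catalyzes the last step of cholesterol synthesis, had 184121 estimated counts in scramble KYSE140 cells and 25079 in scramble TE5 cells, a log2 difference of 3.27. NADSYN1, an NAD synthetase, had 50416 and 8043, a log2 difference of 3.04, 3.42 and 3.03 at scramble, shTP63 and shSOX2. The 3 protein-coding genes with at least 100 counts that come next were not past 1 or -1 in scramble, with -0.51 for RNF121, -0.65 for XNDC1N and -0.26 for IL18BP.

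The protein-coding genes past 1 at all 3 shRNAs fell within a stretch of 18 protein-coding genes with at least 100 counts, from PPP6R3 (-1.23 Mb from the CCND1 start) to NADSYN1 (1.71 Mb). Of these, 15 were past 1 at all 3 shRNAs, MYEOV was past -1, and CCND1 and ANO1 were neither. Their median log2 difference in scramble was 1.59, against -0.10 over all genes tested. The other 37 such genes within the 2.5 Mb had a median of -0.26, with 0 past 1 and 6 past -1 at all 3 shRNAs, and 1 past 1 in scramble. The ends of the stretch were chosen after the values were seen, so it has no test. DNA copy number was not analysed here.

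**Figure D2:**
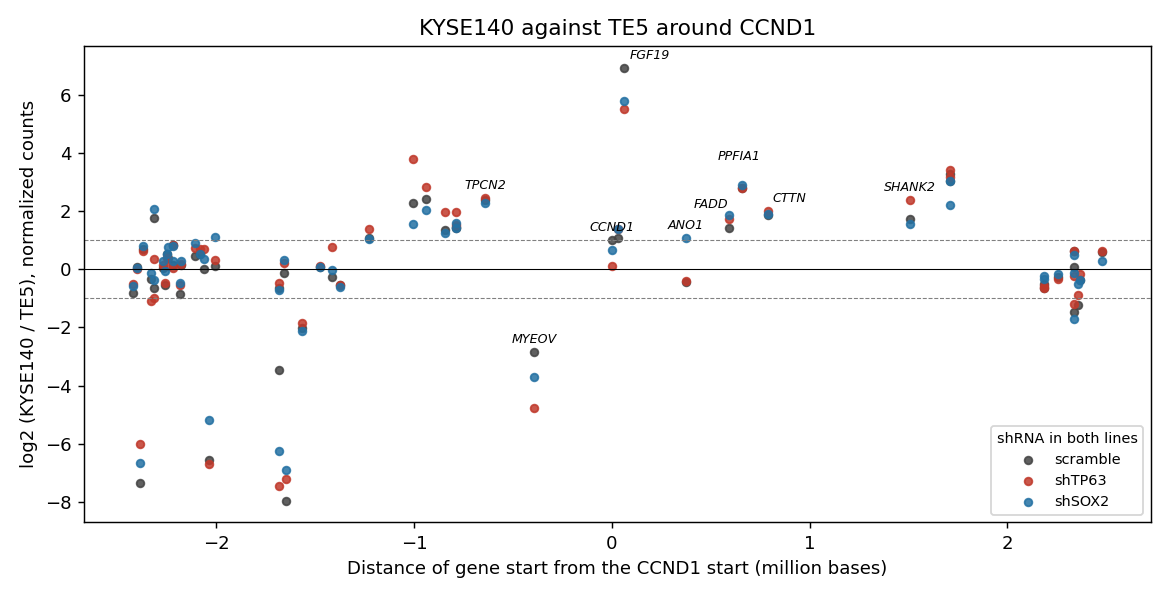
log2 ratio of KYSE140 to TE5 normalized counts against the distance of the gene start from the CCND1 start, in Mb, for protein-coding genes with at least 100 counts in a scramble library. Each gene has a point for scramble, shTP63 and shSOX2, and dashed lines mark 1 and -1. Between -1.23 and 1.71 Mb 15 of 18 genes stand above 1 at all 3 shRNAs, with MYEOV (-2.84 in scramble), CCND1 and ANO1 as the exceptions.

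The shares of some transcripts of members also differed between the lines. How often transcript shares separate the lines over all genes was not analysed here. The values that follow are therefore a description of the transcripts named and have no background. CTTN transcripts divide into those with and without exon 11 of 18, an exon of 111 bases (37 codons, so the reading frame is kept) that encodes 1 of the tandem repeats by which cortactin binds actin filaments. The exon lies at chr11:70267576-70267686 on the plus strand of GRCh37. It is printed in capitals with 20 bases of the exon before and of the exon after it, because the share of transcripts without it differed between the lines.
CTTN exon 11: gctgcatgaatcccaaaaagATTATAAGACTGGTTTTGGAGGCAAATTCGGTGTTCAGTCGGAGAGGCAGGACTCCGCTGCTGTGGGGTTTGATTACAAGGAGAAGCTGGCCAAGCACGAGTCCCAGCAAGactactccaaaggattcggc
Of the counts on the 3 coding CTTN transcripts with at least 100 counts, the share on the 2 without this exon in KYSE140 was 5.67% with scramble (95% exact binomial interval 5.51 to 5.84), 5.56% with shTP63 and 9.53% with shSOX2. In TE5 cells it was 12.4% in scramble (11.99 to 12.75), 10.7% in shTP63, 12.4% in shSOX2 and 10.5% in shCCAT1. Each TE5 library stood above each KYSE140 library. Kallisto divides reads among overlapping transcripts by likelihood, so these shares are estimates, and the binomial intervals do not cover that step. ENST00000376561, 1 of the 2 without the exon, also differs elsewhere, with 1902 coding bases against 1650 in the transcript with it. It held 3659 of the 4139 counts without the exon in KYSE140 scramble and 1846 of 3594 in TE5 scramble. The shares thus do not measure use of exon 11 alone.

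The transcript ENST00000346329, 1 of the 2 without the exon, held 0.331% to 0.658% of these counts in KYSE140. In TE5 it held 5.45% to 6.02% in scramble, shTP63 and shSOX2 but 1.87% in shCCAT1. CTTN transcripts annotated as retaining an intron took 16.5% to 18.7% of CTTN counts in KYSE140 and 8.97% to 13.6% in TE5. For PPFIA1, that share did not separate the lines: it was 5.66% in KYSE140 shTP63, 5.04% in TE5 shTP63 and 4.80% in TE5 shCCAT1, and 1.36% to 2.97% in the other 4 libraries. CCND1 counts fell almost entirely on coding transcripts in both lines, from 94.2% to 97.3%. Of its TPM less did: ENST00000227507, its main coding transcript, measured 110.1 of 179.8 TPM in KYSE140 scramble and 63.2 of 92.5 in TE5 scramble. Most of the rest was on short transcripts annotated as retaining an intron. For CTTN, the coding transcript ENST00000301843 measured 468.7 of 993 TPM in KYSE140 scramble and 149.3 of 249 in TE5 scramble.

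ANO1 counts were carried mainly by ENST00000531349, with 59.7% to 78.7% in each library. The transcript ENST00000355303 held 1.30%, 9.29% and 2.27% of ANO1 counts in KYSE140 scramble, shTP63 and shSOX2, and 24.2%, 14.5%, 24.7% and 19.9% in TE5 scramble, shTP63, shSOX2 and shCCAT1. The short transcript ENST00000531300 (577 bases) held 10.6% to 18.4% in KYSE140 and at most 1.34% in TE5. MYEOV counts in TE5 were mostly on non-coding transcripts, and the coding share was 7.02% in shTP63 to 18.99% in shSOX2.

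**Figure D3:**
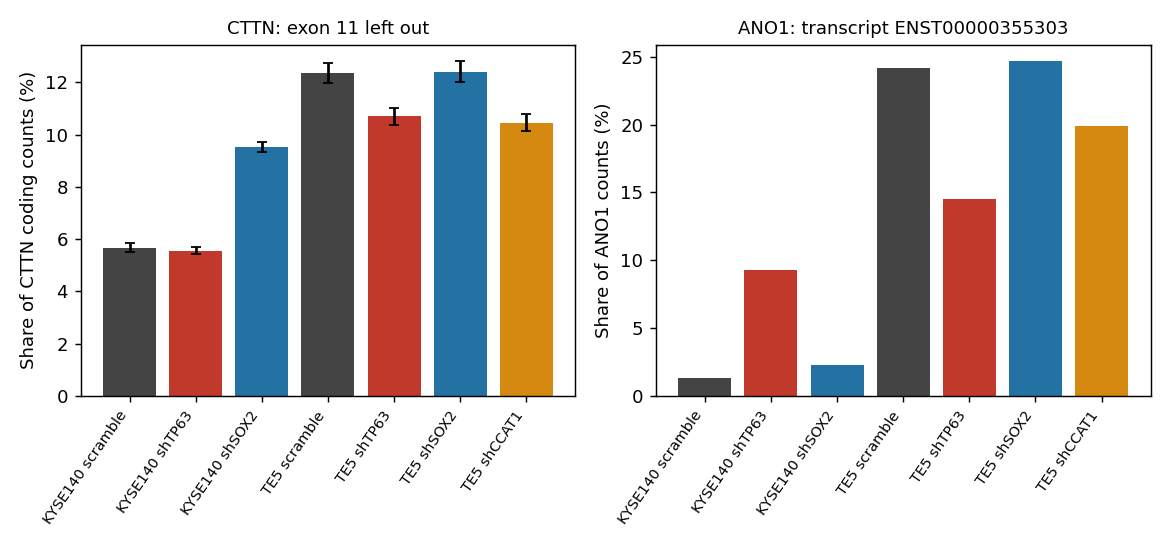
Left, share (%) of counts on the CTTN coding transcripts that lack exon 11, with 95% exact binomial intervals as bars. Right, share (%) of ANO1 counts on ENST00000355303. The 3 KYSE140 libraries (5.56% to 9.53% and 1.30% to 9.29%) lie below the 4 TE5 libraries (10.5% to 12.4% and 14.5% to 24.7%) in both panels.

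Each knockdown library was then compared with the scramble library of its line, to ask whether the members follow TP63, SOX2 or CCAT1. The knockdowns of 1 line share its scramble library, so their values are not independent. A gene was counted as past the threshold at a log2 fold change beyond 1 or -1 of normalized counts, with 1 added to each. Without scaling between libraries the median over all genes was 0.48 instead of 0.07 in TE5 shTP63, 0.41 instead of 0.02 in TE5 shCCAT1 and 0.62 instead of 0.05 in KYSE140 shTP63, so the fold changes given are relative to the scaled libraries. In TE5 shTP63, 1 of 8 members measured was past 1 (MYEOV), against 14.8% of all genes, and 0 were past -1, against 5.61%. In TE5 shSOX2 0 of 8 were past either, against 6.31% higher and 4.95% lower over all genes. In TE5 shCCAT1, SHANK2 was past -1 (6.05% of all genes) and 0 members were past 1 (11.9%). In KYSE140 shTP63, FGF19 of 9 members was past -1 (4.27%) and 0 were past 1 (9.01%), and in KYSE140 shSOX2, ANO1 was past 1 (7.08%) and 0 were past -1 (6.17%). No share can be read as above the background, since each rests on 1 gene or none.

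CCND1 was higher than scramble in both shSOX2 libraries. In TE5 cells its normalized counts were 15615 in scramble, 21826 in shTP63, 28555 in shSOX2 and 12476 in shCCAT1. In KYSE140 cells they were 31187 in scramble, 23713 in shTP63 and 44802 in shSOX2. The log2 fold change was 0.87 (0.84 to 0.90) in TE5 shSOX2 and 0.52 (0.50 to 0.55) in KYSE140 shSOX2. Upon silencing of TP63 it had opposite signs in the lines, 0.48 in TE5 and -0.40 in KYSE140, and in TE5 shCCAT1 it was -0.32 (-0.36 to -0.29). Without scaling between libraries both negative values turned, to 0.18 in KYSE140 shTP63 and 0.07 in TE5 shCCAT1, so these directions depend on the scaling.

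FADD was lower than scramble in both shTP63 libraries. Its normalized counts were 4646 in TE5 scramble, 2802 in TE5 shTP63, 3910 in TE5 shSOX2 and 4519 in TE5 shCCAT1. They were 12425, 9379 and 14150 in KYSE140 scramble, shTP63 and shSOX2. The log2 fold change upon silencing of TP63 was -0.73 (-0.79 to -0.67) in TE5 and -0.41 (-0.45 to -0.36) in KYSE140, the latter turning to 0.17 without scaling between libraries. PPFIA1 was below scramble in all 5 knockdowns, by log2 values of -0.31 to -0.06, but without scaling, or on TPM in TE5 shTP63 and shCCAT1, some of these turned positive.

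After scaling, CTTN and TPCN2 lay close to scramble in every knockdown. CTTN log2 fold changes ran from -0.16 in TE5 shCCAT1 to 0.11 in KYSE140 shSOX2, and those of TPCN2 from 0.07 to 0.24. The sign of CTTN in TE5 shTP63 and shCCAT1 turned without scaling (0.36 and 0.23), and that of TPCN2 in KYSE140 shSOX2 turned on TPM (-0.12). SHANK2 was at 400 normalized counts in TE5 scramble, 221 in shTP63, 525 in shSOX2 and 196 in shCCAT1. Its log2 fold change was -1.02 (-1.26 to -0.79) in TE5 shCCAT1 and -0.85 in TE5 shTP63, but -0.59 and -0.39 when the unassigned transcripts listed among its own were added. The TE5 shCCAT1 value was also not past -1 without scaling (-0.63), on TPM (-0.52) or with a pseudocount of 10 (-0.99). Those unassigned transcripts measured 9.10 TPM in TE5 shCCAT1 and 2.504 in TE5 scramble, whereas SHANK2 itself measured 2.96 and 4.29, so the summed TPM would run the other way. In KYSE140 its values were -0.21 in shTP63, turning to 0.36 without scaling, and 0.24 in shSOX2.

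ANO1 measured 924, 614 and 2081 normalized counts in KYSE140 scramble, shTP63 and shSOX2. KYSE140 shSOX2 stood apart, with a log2 fold change of 1.17 (1.04 to 1.30), or 0.83 with the unassigned transcripts and 0.91 on TPM, while in TE5 shSOX2 it was -0.34. Upon silencing of TP63 ANO1 was at -0.63 in TE5 and -0.59 in KYSE140, but at -0.21 and -0.02 without scaling between libraries. On TPM the 2 values were -0.15 and -0.40, and with the unassigned transcripts -0.62 and -0.35. FGF19 was lower in both KYSE140 knockdowns, with 756, 295 and 393 normalized counts and log2 fold changes of -1.36 (-1.56 to -1.16) in shTP63 and -0.94 (-1.15 to -0.74) in shSOX2. Without scaling the shTP63 value was -0.79 and so not past -1. It was not compared in TE5, where it had under 10 counts, nor was FGF3 in either line.

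MYEOV measured 250 normalized counts in TE5 scramble, 804 in shTP63, 380 in shSOX2 and 188 in shCCAT1. The log2 fold change was 1.68 (1.48 to 1.89) in TE5 shTP63, or 0.95 on coding transcripts alone. On coding transcripts it was 1.3 in TE5 shSOX2, against 0.60 over all transcripts, and 0.26 in TE5 shCCAT1, against -0.41. The order of the TE5 libraries thus depends on the transcripts counted. MYEOV had few coding counts in TE5: 28 in scramble, 73 in shTP63, 70 in shSOX2 and 43 in shCCAT1. In KYSE140, with 34, 28 and 28 normalized counts, its intervals of -1.07 to 0.56 in shTP63 and -1.16 to 0.60 in shSOX2 include 0, and on coding transcripts alone the values were 3.9 and 3.93. The whole gene had only 25, 31 and 23 estimated counts in KYSE140 scramble, shTP63 and shSOX2. The KYSE140 coding values therefore lie near the floor and show no change.

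**Figure D4:**
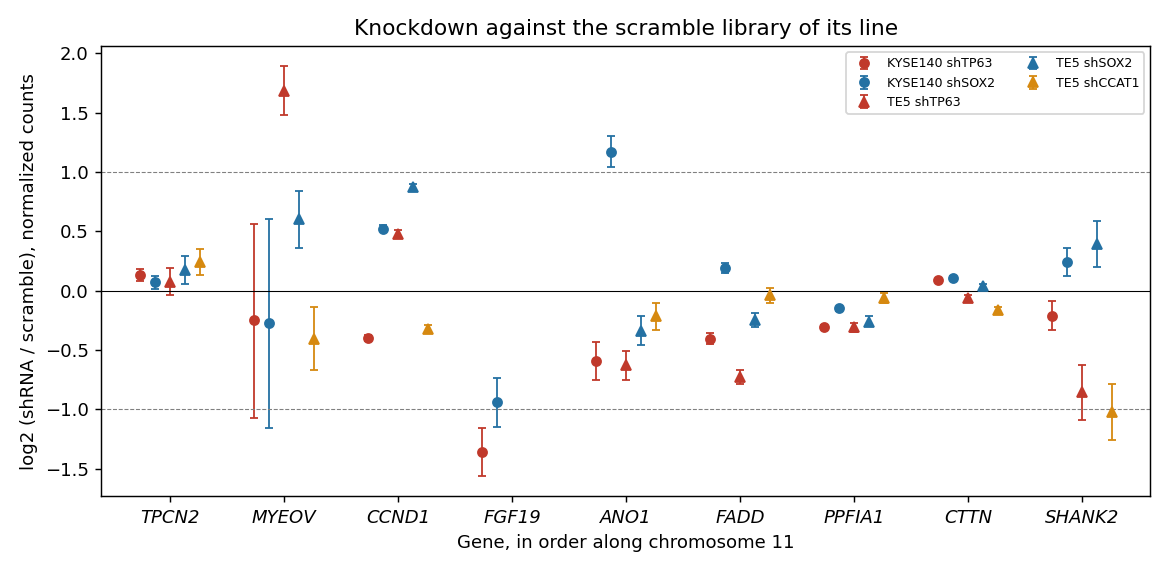
log2 ratio of each shRNA library to the scramble library of its line for the 9 members with at least 10 counts, with 95% counting intervals as bars and dashed lines at 1 and -1. Circles are KYSE140 and triangles TE5. MYEOV in TE5 shTP63 (1.68), ANO1 in KYSE140 shSOX2 (1.17), FGF19 in KYSE140 shTP63 (-1.36) and SHANK2 in TE5 shCCAT1 (-1.02) are past the lines, and most points of CTTN and TPCN2 lie near 0.

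With both lines in the edgeR fit and cell line as a block, 0 of 9 members passed an adjusted p of 0.1 for TP63 silencing, against 0.939% of all genes, and 0 of 9 for SOX2 silencing, against 0.145%. At an unadjusted p under 0.05 there were 2 members for TP63 (14.4% of all genes) and 1 for SOX2 (8.94%). These were FADD, with a log2 fold change of -0.57 (SE 0.15, adjusted p = 0.18 by edgeR), FGF19, with -1.03 (SE 0.41, adjusted p = 0.323 by edgeR), and CCND1 for SOX2, with 0.66 (SE 0.22, adjusted p = 0.456 by edgeR). DESeq2 called FADD for TP63 silencing (-0.61, adjusted p = 0.0282) and no member for SOX2. Without the KYSE140 shTP63 library the edgeR adjusted p of CCND1 for SOX2 was 0.0483, and without the TE5 shTP63 library 0.019. The fit treats the lines as replicates, and it found TP63 itself at -1.95 (SE 0.14, adjusted p = 0.0368 by edgeR) but SOX2 at -0.88 (SE 0.22, adjusted p = 0.302 by edgeR).

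The partners of the members were examined with lists of relatives and pathway genes. Of 17 genes that bind, inhibit or act beside cyclin D, 6 were higher and 5 lower in KYSE140 by edgeR at an adjusted p under 0.1, with a median log2 of 0.10 against -0.07 over all genes. Over all genes 31.8% were higher and 34.3% lower, so these counts lie near the background, and the same shares and median stand as background for the lists that follow. CDKN2B, an inhibitor of CDK4 and CDK6, was at 0 normalized counts in scramble KYSE140 cells and 1468 in scramble TE5 cells. CDKN2A, which encodes another such inhibitor, was at 0 and 232. CDKN2D, a further inhibitor, was higher in KYSE140 (2.14, adjusted p = 0.000473 by edgeR) and CCND3, encoding cyclin D3, was lower (-1.55, adjusted p = 0.000153 by edgeR).

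CCND1 was the most abundant D-type cyclin per length in all 3 KYSE140 libraries, and in TE5 its lead over CCND3 was clear with shSOX2 (170.4 against 72.8 TPM) but not with scramble or shCCAT1. Per length it made up 76.6%, 71.2% and 82.3% of the summed TPM of CCND1, CCND2 and CCND3 in KYSE140 scramble, shTP63 and shSOX2. In TE5 scramble CCND1 and CCND3 were at 92.5 and 93.5 TPM, and the CCND1 share was 41.9%, with 49.5% in shTP63, 54.8% in shSOX2 and 41.3% in shCCAT1. These sums include non-coding transcripts: the main coding CCND1 transcript measured 110.1 TPM in KYSE140 scramble and 63.2 in TE5 scramble. Shares on coding transcripts alone were not analysed here. In TE5 shTP63, CCND2 (-1.39) and RB1 (-1.20) were past -1 and CDKN2B (1.31) and CDKN1A (1.00) were past 1. In TE5 shSOX2 the gene past -1 was CDK2, and in TE5 shCCAT1 the gene past 1 was CCNE2 (1.01). In KYSE140, 0 of 15 measured genes were past either threshold in either knockdown.

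**Figure D5:**
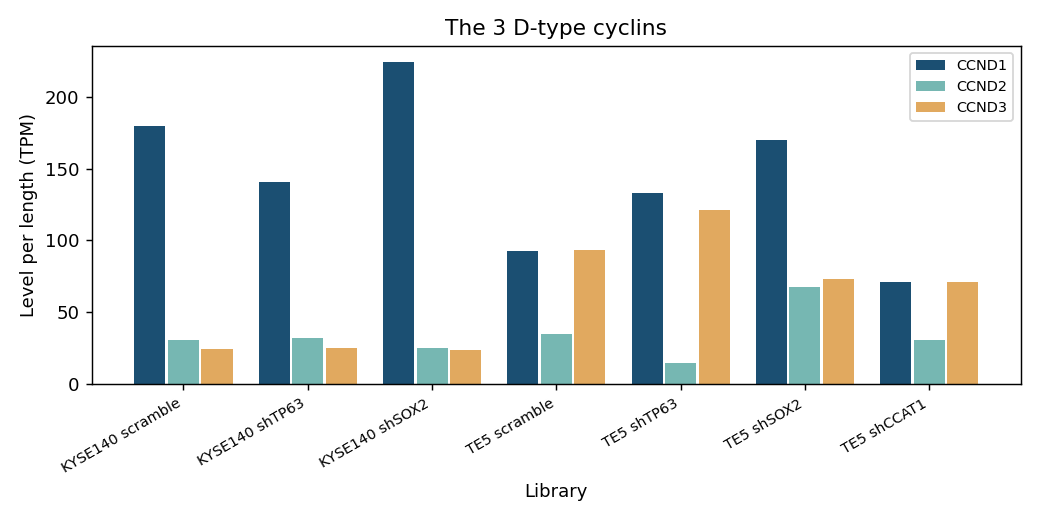
TPM of the 3 D-type cyclins in each library, summed over coding and non-coding transcripts. CCND1 is the tallest bar in the 3 KYSE140 libraries (140.5 to 224.5 TPM), while in TE5 scramble CCND1 and CCND3 are level (92.5 and 93.5 TPM) and CCND2 is at 34.7 TPM.

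The 13 death receptor genes around FADD were mostly lower in KYSE140, where FADD was higher. Of 12 fitted, 10 were lower and 2 higher by edgeR at an adjusted p under 0.1, with a median log2 of -0.78 (34.3% lower and a median of -0.07 over all genes). FAS, a receptor that recruits FADD, measured 29 normalized counts in KYSE140 scramble and 3542 in TE5 scramble (-7.00, adjusted p = 8.49e-07 by edgeR). CASP10 (-2.32), CFLAR (-1.41) and TNFSF10 (-1.18) were lower as well, and BID (0.94) and TRADD (0.52) were higher. In each of the 5 knockdowns 0 of 12 were past 1 or -1.

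The FGF receptors were higher in KYSE140, the line with measurable FGF19. FGFR1 to FGFR4 had log2 differences of 3.15, 3.23, 2.73 and 2.49, the largest adjusted p being 0.000195 by edgeR. FGFR4, the main receptor of FGF19, was at 3828 normalized counts in KYSE140 scramble and 618 in TE5 scramble. KLB, the co-receptor that FGF19 requires, was low in both, at 11 and 56 normalized counts (-2.08, adjusted p = 0.00636 by edgeR), and KL was at 0 and 242. In knockdowns FGFR2 (-1.27) and FGFR3 (-1.17) were past -1 in TE5 shTP63, KLB (-1.18) and KL (-1.04) in TE5 shSOX2, and FGFR4 (-1.28) in KYSE140 shSOX2.

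Relatives of PPFIA1 and SHANK2 that lie on other chromosome segments were higher in KYSE140 too: 9 of 11 fitted liprin, SHANK and partner genes were higher and 1 lower by edgeR at an adjusted p under 0.1, with a median log2 of 1.28 (31.8% higher and a median of -0.07 over all genes). PPFIA3 (2.98), PPFIA4 (2.74), SHANK1 (5.68) and PTPRF (2.22), a receptor phosphatase that binds liprins, were among them. In TE5 shCCAT1 PTPRS (-1.25), SHANK3 and PTPRF (-1.0) were past -1 and SHANK1 (1.37) was past 1, and SHANK1 (1.35) was also past 1 in TE5 shTP63. SHANK1 was near the floor in TE5, with 11 normalized counts in scramble, 29 in shCCAT1 and 29 in shTP63. The 12 partners of cortactin in branched actin gave 2 higher and 5 lower genes (31.8% and 34.3% over all genes), among them WASL (1.55), WIPF1 (-6.03), ARPC1B (-2.44) and SRC (-1.93), and 0 past 1 or -1 in any knockdown. Of the 7 fitted relatives of ANO1 and TPCN2, 4 were higher and 2 lower (31.8% and 34.3% over all genes), with ANO8 at 2.87, ANO2 at -2.28 and TPCN1 at -0.79. ANO2 was low in both lines, with 3 normalized counts in KYSE140 scramble and 34 in TE5 scramble. For TP63 and SOX2 silencing, 0 genes of the 6 lists passed the edgeR adjusted p of 0.1.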

How the data were processed

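RNA-seq of 7 libraries was analysed, with 1 library per group named from the labels. Per the methods of the study, the authors pseudoaligned 100-base paired reads with Kallisto to the hg19 Ensembl release 82 transcriptome. The deposited estimated counts are expected reads per transcript, not scaled between libraries, and the deposited TPM values are per effective transcript length and scaled to the same total in each library. The Kallisto version and the strandedness are not given in the sources used here. Transcripts were summed by gene with GENCODE 44 on GRCh37, which assigned 182863 of 196354 transcripts and 93.5% to 93.7% of counts, and 13491 transcripts were left out. Counts were rounded and TMM-scaled with edgeR 4.0.16 in R 4.3.3. Pairs of libraries were compared by log2 ratios with 1 count added, where either library held 10 or more, and exact conditional binomial intervals at 95%, which cover counting error only. edgeR's quasi-likelihood test was run on 6 libraries with cell line and shRNA as terms (2 residual degrees of freedom) and Benjamini-Hochberg adjustment at 0.1. It was tested on simulated counts, in which far fewer genes were changed between the lines than were called here. That test therefore does not check the calls between the lines. The same kind of shRNA pairs the lines, and no replicate numbers do. Alternatives used DESeq2 1.42.0, other scaling, filters and pseudocounts, and leaving out each library. Named genes were the members, the silenced genes, protein-coding genes between the outermost members, the 5 nearest on each side with at least 100 counts, up to 4 genes per list past a threshold, and the 3 genes most like CCND1, of which 1 is not reported here. The members, lists and tests were chosen with earlier results of these data known.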

Additional observations from a re-analysis of the deposited data

Results flagged for a closer look

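Of 16 members' knockdown values that could be compared between the lines, 4 had opposite signs in KYSE140 and TE5 with both counting intervals excluding 0. The share of all genes that meet this rule was not analysed here, so 4 of 16 cannot be set against a background. Counting intervals are narrow at high counts, so values close to 0 can meet the rule too. MYEOV had opposite signs too (1.68 in TE5 and -0.25 in KYSE140 upon shTP63, 0.60 and -0.27 upon shSOX2), but its KYSE140 intervals include 0. With 1 library on each side, none of these differences was tested. Upon silencing of TP63, CCND1 was at a log2 fold change of 0.48 in TE5 and -0.40 in KYSE140, a difference of -0.88 (KYSE140 minus TE5). Without scaling between libraries both were positive, at 0.90 and 0.18. CTTN was at -0.06 and 0.09, a difference of 0.15, and its TE5 value was 0.36 without scaling, the sign of its KYSE140 value. Upon silencing of SOX2, FADD was at -0.25 in TE5 and 0.19 in KYSE140, a difference of 0.44. ANO1 was at -0.34 in TE5 and 1.17 in KYSE140, a difference of 1.51, with SOX2 itself at 39.6% of scramble in TE5 and 77.4% in KYSE140. The part of the unequal silencing in these values was not tested.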

How the results depend on the processing

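Of 51 member values between pairs of libraries, recomputed in 255 alternatives, the sign was kept in 229 and not in 26. The 11 values past 1 or -1 kept their sign in all 55 alternatives, and 48 stayed past the threshold. The values that did not were SHANK2 in TE5 shCCAT1, MYEOV in TE5 shTP63, FGF19 in KYSE140 shTP63 and ANO1 in KYSE140 shSOX2. The counts of all genes past 1 or -1 depended on the filter and the pseudocount. They were 4992 in TE5 shTP63 (10861 with at least 1 count, 2214 with at least 50 counts, 2744 with a pseudocount of 10), 2558 in TE5 shSOX2 (9867, 707 and 1172), 4318 in TE5 shCCAT1 (10579, 1214 and 2191), 2902 in KYSE140 shTP63 (8340, 806 and 1423, and 5063 without scaling) and 2750 in KYSE140 shSOX2 (9384, 887 and 1646). Between the scramble libraries the count was 11256, and 19068 with at least 1 count. The edgeR calls for TP63 silencing numbered 220, against 1744 by DESeq2, 1211 without the filter, 0 without cell line as a block and 0 to 2129 leaving out 1 library. For SOX2 silencing they numbered 34, against 628 by DESeq2, 390 without the filter, 0 without the block and 0 to 918 leaving out 1 library. In both, 0 remained without either scramble library. The cause was not tested. Between the lines the edgeR calls numbered 15484, and 13750 without the shRNA block. Whether a member was called between the lines was unchanged in 96 of 99 alternatives, the 3 exceptions being those of CCND1. The 96 include the alternatives for ANO1, which was called in none of them. For TP63 silencing FADD was called by DESeq2 and without KYSE140 shSOX2 (adjusted p = 0.0939 by edgeR), and MYEOV without KYSE140 shTP63 (1.5, adjusted p = 0.0543 by edgeR). The median log2 difference of the 93 genes within 2.5 Mb was 0.14, and 0.17 with DESeq2 size factors. Adding unassigned transcripts of ANO1 and SHANK2 was chosen after seeing the data. With 7 or fewer FGF19 counts in each TE5 library, a change of FGF19 in TE5 was not detectable at this depth.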

Other observations

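The genes LAMB3 and KANK1, whose profiles over the 7 libraries were closest to that of CCND1, lie on other chromosomes. Likeness was the mean absolute difference of log2 normalized counts after centring each gene, over 14929 genes. It was 0.099 for LAMB3, the laminin-332 beta chain of epithelial basement membranes, and 0.106 for KANK1. LAMB3 measured 73828, 63949 and 108230 normalized counts in KYSE140 scramble, shTP63 and shSOX2, and 40109, 61215, 62743 and 29562 in TE5 scramble, shTP63, shSOX2 and shCCAT1. As for CCND1, the shSOX2 library was the highest of each line and shCCAT1 the lowest in TE5. LAMB3 was chosen for its likeness over these same libraries, so this shared order is no separate result. FADD was at 0.574 from CCND1 and PPFIA1 at 0.979. The likeness is a description over 7 libraries, of which the knockdowns share a scramble library within each line.

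Long non-coding genes in the same region differed in both directions, and those named were chosen after their values were seen. CTTN-DT, which starts beside CTTN, had 318 estimated counts in KYSE140 scramble and 164 in TE5 scramble, with log2 differences of 1.34, 2.04 and 1.38 at scramble, shTP63 and shSOX2. ENSG00000254682, within the bounds of DHCR7, had 4019 and 567, with log2 differences of 3.21, 3.10 and 2.47. ENSG00000254495, within the bounds of PPFIA1, had few counts, 9 in KYSE140 scramble and 23 in TE5 scramble, with log2 differences of -0.91, -1.80 and -0.52. Its scramble interval of -2.26 to 0.20 includes 0, and ENSG00000254495 was not called between the lines (-1.14, adjusted p = 0.111 by edgeR). Whether reads of ENSG00000254682 and ENSG00000254495 belong to the larger gene around each was not tested. RP11-211G23.2, between MYEOV and CCND1, had 0 and 20.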
